A study of Mus musculus with 29 samples.

Results

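The nucleolus is where ribosomes are made. RNA polymerase I transcribes the long precursor of the ribosomal RNAs there, small nucleolar ribonucleoproteins (snoRNPs) methylate or pseudouridylate it, and a large cast of GTPases, helicases, nucleases and chaperones folds it, cuts it and packs it with ribosomal proteins into the small (40S) and large (60S) subunits. The 39 genes described here encode proteins of this pathway: 2 subunits of RNA polymerase I, 3 core proteins of box C/D snoRNPs, 4 core proteins of box H/ACA snoRNPs, 7 nucleolar chaperones, GTPases, helicases and regulators, 13 factors of the small subunit and 10 factors of the large subunit. They were chosen by name, as probes whose RefSeq accession maps to one of 39 symbols, with the brightest probe standing for a gene that had several. All 39 were on the array and all 39 passed the filter on dim probes, among 15639 genes tested.

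The study injured podocytes, the filtering epithelial cells of the kidney glomerulus, in male C57BL/6J mice of the line Pod-hCD25T/G, aged 8 weeks. Mice had 1 kidney removed and then received 25 ng of LMB2 per g of body weight, and 2 podocyte populations were sorted from them by flow cytometry. LMB2 is an immunotoxin that binds human CD25 and carries a fragment of Pseudomonas exotoxin A, which stops protein synthesis at the elongation step. As the study is known, and not from the sample labels, TdTomato-positive podocytes carry the human CD25 target and EGFP-positive podocytes of the same glomeruli do not. Each array held the RNA of 1 population of 1 mouse. There were 4, 4, 4 and 2 arrays of TdTomato podocytes at days 0, 1, 4 and 7, and 4, 3, 4 and 4 arrays of EGFP podocytes at the same days, 29 in all, from 16 mice of which 13 gave both populations. Day 0 mice were sampled before the toxin. Whether they had already lost a kidney, and which promoter drove the transgene, is not known from the sources at hand. Mice are named as in the labels (MC122 and so on).

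Levels are given as log2 signal after each array was scaled to its own 75th percentile over non-control spots, so that 0 stands for that percentile. A level is compared only between arrays, never between genes. A gene was called higher or lower where limma's moderated test passed an adjusted p of 0.05 over all 15639 genes. Between 48.2% and 65.5% of spots were well above background per array, and 0 spots were saturated. The podocyte markers identified both populations: their summed linear signal, in units of the 75th percentile, was 1396 to 1992 at day 1 and 1310 to 1789 at day 4 in TdTomato podocytes, against 2075 to 3470 at day 0, and it was 1656 to 3164 over the EGFP arrays. All 10 markers were well above background on some array of each group. Summed signals of markers of other cells moved too. The 6 markers of parietal epithelium summed to 15.3 to 36.2 in TdTomato podocytes at day 1, against 4.67 to 6.79 at day 0, with Krt8 well above background on no day 0 array. Of these 6, 2 were called higher and 0 lower, and 1 had a change below 0. The 6 myeloid markers measured summed to 83.2 to 264 at day 1 against 38.3 to 56.2 at day 0, with Lyz2 above background on no day 0 array. Only 1 of the 6 was called higher and 0 lower. Their log2 changes ran from -0.58 to 3.15, with 2 below 0. In TdTomato podocytes the 10 endothelial markers summed to 51.3 to 84.4 at day 7 against 10.8 to 21.0 at day 0. Of these 10, 6 were called higher and 0 lower, against 10.9% and 8.45% of all genes. The podocyte markers summed to 1885 to 2287 on these day 7 arrays, with 0 of 10 called higher and 5 lower than at day 0. In TdTomato podocytes at day 4 the 8 markers of proximal tubule ran from 1.90 to 179, against 1.04 to 15.8 at day 0, and the endothelial markers from 6.21 to 58.0. At day 7 the 5 distal nephron markers measured summed to 2.60 to 60.8 against 2.27 to 5.09 at day 0 in TdTomato podocytes, and the 8 mesangial markers to 8.54 to 14.8 against 3.52 to 6.48. In EGFP podocytes at day 7 the parietal markers summed to 29.7 to 47.3 against 5.21 to 9.63 at day 0, the mesangial markers to 9.56 to 13.1 against 3.16 to 7.14, and the distal nephron markers to 1.95 to 27.5 against 1.23 to 5.94. The 5 lymphocyte markers measured summed to between 1.61 and 6.73 on all arrays, but single markers moved. In TdTomato podocytes at day 4, 2 of the 5 were called higher and 0 lower than at day 0, against 21.4% and 35.9% of all genes. Their log2 changes ran from -0.31 to 6.22. The part of these cells in the results was not tested. In RNA from a sorted population, a change in the share of cells and a change in RNA per cell cannot be told apart.

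One day after the toxin, 30 of the 39 genes were higher in TdTomato podocytes than at day 0 and 0 were lower (limma; at an unadjusted p under 0.05 the counts were 31 and 0). Over all genes 23.8% were called higher and 27.9% lower in the same comparison. The median log2 change of the 39 was 1.02 where the median of all genes tested was -0.13. At day 4, 16 genes were higher and 8 lower than at day 0 (20 and 6 with quantile normalization), against 21.4% and 35.9% of all genes. The share called lower, 20.5%, was below that over all genes. The median of the 39 was 0.26, where all genes stood at -0.28. At day 7, with 2 arrays, 1 gene was higher and 3 were lower (2 and 2 with quantile normalization), against 10.9% and 8.45% of all genes, and the median was -0.17, near that of all genes at -0.13. That count of 4 was 10 with the slide as a block, and 1 with only the compared groups in the fit or without mouse MC221. It was 2 with no filter on dim probes, or without the day 0 array of MC122, MC742 or MC753. These 3 comparisons share the same 4 day 0 arrays. At day 1, 28 of the 39 genes were higher on every TdTomato array than on any day 0 array, as were 20.4% of all genes. Utp18 is counted among the genes called higher at days 1 and 4, although its signal allows only a bound. Its probe passed the filter on dim probes only through TdTomato arrays of these 2 days.

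The shift showed on every day 1 array. Each gene was set against its mean over all day 0 arrays, both populations together. On single TdTomato arrays the median of the 39 genes was then 0.17, -0.15, 0.11 and -0.09 on day 0, 1.31, 0.72, 1.04 and 1.09 on day 1, 0.41, 0.13, 0.20 and 0.13 on day 4, and -0.19 and -0.17 on day 7. The 4 day 1 arrays lay above every other TdTomato array. On EGFP arrays the same median was 0.19, -0.22, 0.05 and 0.00 on day 0, 0.14, -0.11 and -0.07 on day 1, 0.22, 0.01, 0.02 and 0.00 on day 4, and 0.00, 0.05, -0.01 and 0.16 on day 7, and these groups overlapped throughout.

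Within each of the 4 slides that carried the arrays, the median difference of the 39 genes between day 1 and day 0 TdTomato arrays was 0.84, 1.19, 0.92 and 1.20, with 34 to 36 of the 39 genes above 0. Between day 4 and day 0 it was 0.44, 0.21, 0.14 and 0.19. Only slides 1 and 4 held a day 7 TdTomato array, and there the difference from day 0 was -0.12 and -0.38, where the median of all genes was -0.05 and -0.23.

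Promoters of 4 members are shown as examples: Gnl3, Nop58 and Ltv1 had the largest change of their role at day 1, and Pes1 the largest of the large-subunit factors at day 4, when it was lower. The motif searched was CACGTG, an E-box that reads the same on both strands and is known to be bound by MYC, an activator of many ribosome biogenesis genes. The sequences run from 250 bases before to 50 bases after the start, 5′ to 3′ along the gene's own strand, from RefSeq annotation of the mouse build GRCm38.p6, in lower case with any CACGTG in capitals. Each spans the proximal promoter and the beginning of the transcript.
Gnl3 (chr14:31019082-31019381, minus strand): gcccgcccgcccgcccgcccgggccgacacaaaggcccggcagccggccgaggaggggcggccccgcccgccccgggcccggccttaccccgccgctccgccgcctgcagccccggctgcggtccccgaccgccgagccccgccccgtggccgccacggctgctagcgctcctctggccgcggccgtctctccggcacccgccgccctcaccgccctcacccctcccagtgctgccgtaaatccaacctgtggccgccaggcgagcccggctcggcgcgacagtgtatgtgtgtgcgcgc
Nop58 (chr1:59684756-59685055, plus strand): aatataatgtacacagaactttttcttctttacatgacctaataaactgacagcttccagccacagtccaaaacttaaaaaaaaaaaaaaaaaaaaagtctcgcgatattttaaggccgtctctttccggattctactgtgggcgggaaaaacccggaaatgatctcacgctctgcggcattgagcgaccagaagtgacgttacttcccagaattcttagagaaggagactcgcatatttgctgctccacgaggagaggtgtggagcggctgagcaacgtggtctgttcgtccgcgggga
Ltv1 (chr10:13193088-13193387, minus strand): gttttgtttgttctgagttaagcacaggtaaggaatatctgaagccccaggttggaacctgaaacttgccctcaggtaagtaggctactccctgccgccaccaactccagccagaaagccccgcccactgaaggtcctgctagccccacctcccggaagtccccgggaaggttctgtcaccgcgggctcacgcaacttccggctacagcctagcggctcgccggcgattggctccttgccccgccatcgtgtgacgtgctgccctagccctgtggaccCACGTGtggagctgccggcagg
Pes1 (chr11:3963725-3964024, plus strand): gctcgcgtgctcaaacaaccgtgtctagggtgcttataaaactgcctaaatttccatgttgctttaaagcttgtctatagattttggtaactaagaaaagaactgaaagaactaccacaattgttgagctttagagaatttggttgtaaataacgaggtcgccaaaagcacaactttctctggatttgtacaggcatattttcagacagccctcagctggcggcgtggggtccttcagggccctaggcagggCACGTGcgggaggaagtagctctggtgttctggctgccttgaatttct
Of these 4 windows, those of Ltv1 and Pes1 hold 1 CACGTG each and those of Gnl3 and Nop58 hold none. The windows of Bysl, Gar1, Ncl, Nhp2, Nip7, Noc2l, Nop10, Polr1a, Polr1b and Rrp1b, also described below array by array, hold none either. Promoter windows were at hand for 35 of the 39 genes, and 8 of the 35 (22.9%) held the motif: Nop2, Ltv1, Utp20, Pes1, Mybbp1a, Tsr1, Utp18 and Wdr43. Among all 27025 genes with such a window 2187 (8.09%) did. The motif was in 5 of 12 small-subunit promoters, 2 of 9 large-subunit promoters and 1 of 6 promoters of the chaperone and regulator group, and in 0 of the 8 promoters of the polymerase and snoRNP genes. These are counts of letters in a fixed window and say nothing of binding. Npm1, Bop1, Rrp12 and Fbl were not matched.

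Neither subunit of RNA polymerase I passed the test at day 1. Polr1a encodes the largest, catalytic subunit. Its log2 signal in TdTomato podocytes was 2.65, 1.99, 1.96 and 2.03 on day 0, 2.71, 2.16, 1.99 and 2.37 on day 1, 1.90, 1.64, 1.61 and 1.76 on day 4, and 1.81 and 1.64 on day 7. In EGFP podocytes it was 2.66, 2.01, 1.92 and 2.28 on day 0, 2.75, 1.74 and 1.91 on day 1, 2.68, 2.27, 2.02 and 2.12 on day 4, and 2.35, 2.08, 2.08 and 2.12 on day 7. On day 1 the arrays overlapped those of day 0, and on days 4 and 7 every TdTomato array lay below every day 0 array. The change did not pass the test at day 1 (0.15 ± 0.21 SE, adjusted p = 0.599), day 4 (-0.43, adjusted p = 0.0894) or day 7 (-0.44, adjusted p = 0.26). With the slide as a block, Polr1a was called lower at day 4 (adjusted p = 0.00256) and at day 7 (-0.55, adjusted p = 0.00722). Against day 1 rather than day 0, Polr1a was lower at day 4 by the main test (-0.58, adjusted p = 0.0264), a call that was lost with quantile normalization and without the TdTomato array of MC125, MC831, MC692 or MC822.

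Polr1b, which encodes the second-largest subunit, had log2 signals in TdTomato podocytes of 0.61, 0.67, 0.74 and 0.49 on day 0, 0.82, 0.83, 1.07 and 0.98 on day 1, 0.34, 0.53, 0.49 and 0.33 on day 4, and -0.24 and 0.16 on day 7. In EGFP podocytes the signals were 0.73, 0.35, 0.79 and 0.76 on day 0, 0.56, 0.50 and 0.37 on day 1, 0.37, 0.56, 0.65 and 0.52 on day 4, and 0.29, 0.46, 0.20 and 0.67 on day 7. All 4 day 1 TdTomato arrays were above all 4 day 0 arrays by a small margin, and both day 7 arrays were below them. The day 1 change missed the threshold (0.30 ± 0.13 SE, adjusted p = 0.0512), and it was called under quantile normalization (0.32, adjusted p = 0.027). It was lower at day 7 (-0.67, adjusted p = 0.00355), and without the day 7 array of mouse MC221 the change was -0.47 (adjusted p = 0.136).

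The 3 core proteins of box C/D snoRNPs, the particles that place 2′-O-methyl groups on ribosomal RNA, all rose at day 1, where 23.8% of all genes were called higher. Nop58, a scaffold protein of the particle whose gene also carries snoRNAs in its introns, had log2 signals in TdTomato podocytes of 2.58, 1.91, 2.44 and 2.33 on day 0, 6.04, 4.89, 5.26 and 5.54 on day 1, 4.84, 4.51, 4.73 and 3.99 on day 4, and 2.85 and 2.57 on day 7. EGFP podocytes had 2.71, 1.92, 2.53 and 2.20 on day 0, 2.67, 2.37 and 2.62 on day 1, 2.72, 2.25, 2.43 and 2.0 on day 4, and 2.63, 2.40, 2.28 and 2.58 on day 7. Day 1 and day 4 TdTomato arrays stood clear of all others. Of the day 7 arrays 1 was among those of day 0 and 1 just above them. The rise was 8.68-fold at day 1 (log2 change 3.12 ± 0.23 SE, adjusted p = 1.05e-10) and 4.59-fold at day 4 (2.20 ± 0.23 SE, adjusted p = 2.87e-08), and the day 7 difference was 0.40 (adjusted p = 0.343).

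Fbl encodes fibrillarin, the methyltransferase of the same particle. Its log2 signals in TdTomato podocytes were 3.15, 2.70, 2.82 and 2.64 on day 0, 5.03, 3.56, 4.26 and 4.01 on day 1, 3.26, 3.48, 2.96 and 2.86 on day 4, and 2.70 and 3.06 on day 7. EGFP podocytes had 3.24, 2.79, 2.64 and 2.74 on day 0, 3.02, 2.20 and 2.35 on day 1, 3.30, 2.97, 2.55 and 2.45 on day 4, and 2.74, 3.07, 3.14 and 3.21 on day 7. The day 1 TdTomato arrays lay above all others, and those of days 4 and 7 overlapped day 0. The rise was 2.62-fold at day 1 (log2 change 1.39 ± 0.25 SE, adjusted p = 6.04e-05), and the later differences did not pass the test (0.31, adjusted p = 0.306, at day 4 and 0.05 (adjusted p = 0.924) at day 7). With quantile normalization the day 4 difference of Fbl was called (0.53, adjusted p = 0.04). Nop56, the partner of Nop58 in the scaffold, rose 3.44-fold at day 1 (1.78 ± 0.34 SE, adjusted p = 9.80e-05). Its day 4 difference was 0.77 (adjusted p = 0.0582), close to the threshold and past it under 10 of the alternatives, such as quantile normalization (0.99, adjusted p = 0.0072).

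Box H/ACA snoRNPs turn uridine into pseudouridine. Of their 4 core genes, 2 were higher at day 1, and 2 were lower at day 4. Over all genes 23.8% were called higher at day 1 and 35.9% lower at day 4. Gar1 had log2 signals in TdTomato podocytes of 3.45, 3.23, 3.60 and 3.31 on day 0, 4.69, 3.78, 4.51 and 4.50 on day 1, 3.01, 3.26, 3.37 and 3.09 on day 4, and 2.90 and 3.09 on day 7. The EGFP values were 3.53, 3.21, 3.48 and 3.40 on day 0, 3.41, 2.89 and 3.33 on day 1, 3.51, 3.35, 3.52 and 3.20 on day 4, and 3.28, 3.69, 3.41 and 3.82 on day 7. The 4 day 1 TdTomato arrays were above all others of that population, by least on the array at 3.78. The rise was 1.96-fold (log2 change 0.97 ± 0.17 SE, adjusted p = 3.70e-05), and later differences were -0.22 (adjusted p = 0.292) and -0.40 (adjusted p = 0.189) at days 4 and 7.

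Nhp2, another core protein, had log2 signals in TdTomato podocytes of 3.84, 2.97, 3.31 and 3.09 on day 0, 4.55, 3.51, 3.56 and 3.95 on day 1, 3.64, 3.04, 3.49 and 3.37 on day 4, and 3.60 and 3.57 on day 7. On EGFP arrays it was at 3.73, 2.86, 2.95 and 3.20 on day 0, 3.86, 3.23 and 3.09 on day 1, 3.99, 3.45, 3.41 and 3.47 on day 4, and 3.92, 3.84, 3.75 and 4.30 on day 7. The day 1 and day 0 TdTomato arrays overlapped, and in EGFP podocytes the 4 day 7 arrays lay just above the 4 day 0 arrays. The day 1 call in TdTomato podocytes was marginal (0.59 ± 0.24 SE, adjusted p = 0.0454) and was lost with no filter on dim probes, with only the compared groups in the fit and without any 1 of 13 arrays. In EGFP podocytes the day 7 difference was 0.77 (adjusted p = 0.0579), the smallest adjusted p of the 39 genes in that comparison, and it was called with the mouse as a random block (0.77, adjusted p = 0.032).

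Nop10, the smallest core protein, had log2 signals in TdTomato podocytes of 4.93, 4.23, 4.66 and 4.25 on day 0, 5.12, 4.61, 4.79 and 4.72 on day 1, 4.00, 3.59, 4.24 and 3.65 on day 4, and 4.01 and 4.21 on day 7. The EGFP signals were 4.79, 4.22, 4.59 and 4.34 on day 0, 4.58, 4.34 and 4.43 on day 1, 4.84, 4.34, 4.55 and 4.35 on day 4, and 4.13, 4.24, 4.03 and 4.17 on day 7. All day 4 TdTomato arrays but 1 were below all day 0 arrays, the highest of them level with the lowest of day 0. The day 1 difference was 0.29 (adjusted p = 0.18), the day 4 fall was 1.57-fold (log2 change -0.65 ± 0.18 SE, adjusted p = 0.00322), and day 7 was -0.41 (adjusted p = 0.193). Dkc1, the pseudouridine synthase of the particle, differed by -0.41 (adjusted p = 0.193) at day 1 and fell at day 4 (-0.62 ± 0.25 SE, adjusted p = 0.0401) and day 7 (-0.88 ± 0.31 SE, adjusted p = 0.0493). The day 4 call of Dkc1 was lost without any 1 of 5 arrays and with no filter on dim probes, and the day 7 call without any 1 of most arrays.

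The 7 nucleolar chaperones, GTPases, helicases and regulators included 7 called higher at day 1 and 6 at day 4, against 23.8% and 21.4% of all genes. Gnl3 encodes nucleostemin, a nucleolar GTPase of the large-subunit pathway that was first known from stem and tumour cells. Its log2 signals in TdTomato podocytes were 0.49, 0.55, 0.83 and 0.70 on day 0, 4.60, 3.90, 4.48 and 4.45 on day 1, 4.74, 4.46, 3.96 and 3.91 on day 4, and 2.03 and 2.43 on day 7. In EGFP podocytes they were 0.72, 0.48, 0.81 and 0.70 on day 0, 0.53, 0.66 and 0.67 on day 1, 0.59, 0.68, 0.65 and 0.57 on day 4, and 0.56, 0.87, 0.90 and 1.30 on day 7. No day 1, day 4 or day 7 TdTomato array overlapped day 0, and the EGFP arrays stayed in the range of day 0 apart from 3 of the day 7 arrays. Gnl3 rose 13.1-fold at day 1 (log2 change 3.71 ± 0.18 SE, adjusted p = 1.05e-13), 12.3-fold at day 4 (3.62 ± 0.18 SE, adjusted p = 8.69e-14) and 3.0-fold at day 7 (1.59 ± 0.22 SE, adjusted p = 1.37e-05). It had the largest change of the 39 genes at each of these days and was the member still called higher at day 7.

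Ncl encodes nucleolin, an RNA-binding protein of the dense fibrillar part of the nucleolus that takes part in the first cuts of pre-ribosomal RNA. Its log2 signals in TdTomato podocytes were 4.55, 4.83, 4.82 and 4.85 on day 0, 6.16, 6.00, 6.74 and 5.67 on day 1, 6.19, 6.56, 5.44 and 5.50 on day 4, and 4.47 and 4.71 on day 7. EGFP podocytes had 4.40, 4.88, 4.86 and 4.87 on day 0, 4.73, 5.01 and 5.07 on day 1, 4.57, 4.82, 4.93 and 4.75 on day 4, and 4.65, 4.81, 4.96 and 4.89 on day 7. TdTomato arrays of days 1 and 4 lay above all others. Ncl rose 2.61-fold at day 1 (1.38 ± 0.22 SE, adjusted p = 7.98e-06) and 2.24-fold at day 4 (1.16 ± 0.22 SE, adjusted p = 8.57e-05), and stood at -0.17 (adjusted p = 0.693) at day 7. A second, dimmer probe for Ncl gave log2 changes of 1.94 and 3.0 at days 1 and 4, so the probes differ in the size of the day 4 change.

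Npm1 encodes nucleophosmin, a histone and ribosome chaperone of the granular part of the nucleolus. Its log2 signals in TdTomato podocytes were 4.08, 4.11, 4.43 and 4.03 on day 0, 5.26, 4.78, 5.81 and 4.74 on day 1, 6.21, 5.90, 6.09 and 5.25 on day 4, and 4.57 and 4.46 on day 7. On EGFP arrays it was at 4.14, 4.15, 4.81 and 4.12 on day 0, 4.06, 4.28 and 4.80 on day 1, 4.08, 4.20, 4.80 and 4.26 on day 4, and 4.16, 4.25, 4.47 and 4.57 on day 7. It was raised on all day 1 and day 4 TdTomato arrays and was highest at day 4, with an overlap between these days. Npm1 rose 1.97-fold at day 1 (0.98 ± 0.24 SE, adjusted p = 0.00126) and 3.24-fold at day 4 (1.70 ± 0.24 SE, adjusted p = 2.90e-06). Between day 4 and day 1 it was higher by 0.72 (adjusted p = 0.0156), the only one of the 39 to be so, and that call was lost with only these groups in the fit and without TdTomato MC541, MC831 or MC151. The 3 further probes for Npm1 gave changes of 0.81 to 0.87 at day 1 and 1.44 to 1.52 at day 4.

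Rrp1b, which brings protein phosphatase 1 to the nucleolus, was the 1 gene of the group not called higher at day 4. Its log2 signals in TdTomato podocytes were -0.67, 0.45, 0.41 and -0.18 on day 0, 0.57, 0.67, 1.01 and 1.11 on day 1, -1.39, -0.16, -0.10 and -0.50 on day 4, and -1.31 and -0.39 on day 7. The EGFP signals were -0.67, 0.48, 0.32 and -0.10 on day 0, -0.74, 0.27 and -0.10 on day 1, -0.61, 0.24, 0.17 and 0.18 on day 4, and -0.91, -0.03, -0.54 and -0.51 on day 7. Every day 1 TdTomato array was above every day 0 array, and day 4 and day 7 arrays overlapped day 0. Rrp1b rose 1.79-fold at day 1 (0.84 ± 0.33 SE, adjusted p = 0.0338), and the differences of -0.54 (adjusted p = 0.162) at day 4 and -0.85 (adjusted p = 0.139) at day 7 did not pass the test. In every one of the 8 groups the lowest Rrp1b value was that of the slide 4 array, and with the slide as a block Rrp1b was called lower at day 4 (adjusted p = 0.00527) and day 7 (-0.73, adjusted p = 0.00897). The day 1 call was lost without TdTomato MC122, MC753, MC542 or MC831.

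The remaining 3 of the group rose at both days. Mybbp1a, a nucleolar protein that binds the transcription factor MYB and acts on ribosomal RNA synthesis, rose 3.54-fold at day 1 (1.82 ± 0.24 SE, adjusted p = 9.79e-07) and 2.33-fold at day 4 (1.22 ± 0.24 SE, adjusted p = 1.96e-04). Ddx21, an RNA helicase that works with RNA polymerase I and II, rose 2.18-fold at day 1 (1.13 ± 0.13 SE, adjusted p = 9.71e-08) and 2.16-fold at day 4 (1.11 ± 0.13 SE, adjusted p = 1.63e-07). Its dimmer probe gave 0.48 at day 4. Nolc1, which shuttles snoRNPs between nucleolus and Cajal bodies, rose by 1.02 (adjusted p = 3.74e-06) and 0.56 (adjusted p = 0.00301).

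**Figure D1:**
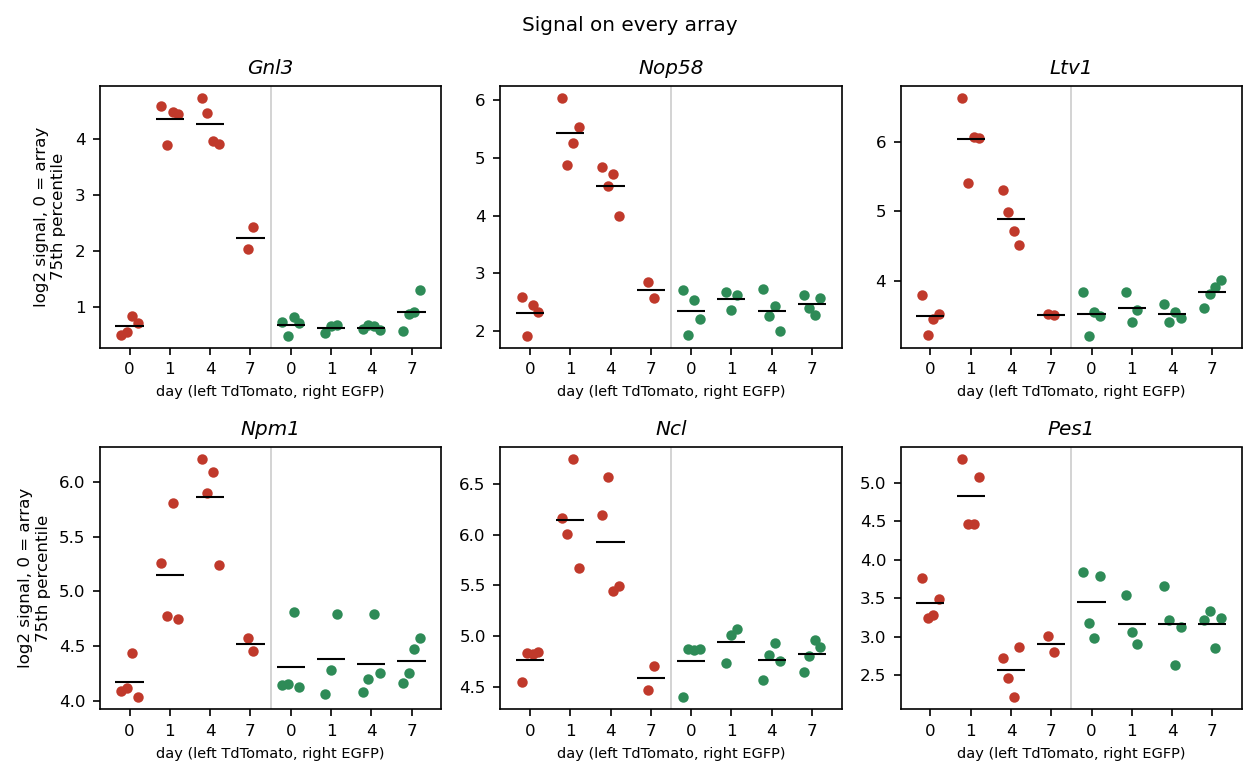
Log2 signal of 6 genes on each of the 29 arrays, with 0 at the array's 75th percentile; TdTomato groups are on the left of each panel and EGFP groups on the right, days run from 0 to 7, and a line marks each group mean. Gnl3 and Nop58 stay high on TdTomato arrays at day 4, Npm1 is highest at day 4, and Pes1 is above its day 0 level at day 1 and below it at day 4.

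Of the 13 small-subunit factors, 12 rose at day 1, while 6 were higher and 1 lower at day 4. Over all genes 23.8% were called higher at day 1, and 21.4% higher and 35.9% lower at day 4. The dim Utp18, described below, is in both counts of higher factors. Ltv1, an assembly factor that must leave the 40S precursor before it matures, led the group. Its log2 signals in TdTomato podocytes were 3.79, 3.22, 3.45 and 3.52 on day 0, 6.63, 5.40, 6.07 and 6.06 on day 1, 5.30, 4.99, 4.71 and 4.52 on day 4, and 3.51 and 3.50 on day 7. In EGFP podocytes they were 3.83, 3.21, 3.55 and 3.49 on day 0, 3.83, 3.41 and 3.58 on day 1, 3.67, 3.40, 3.54 and 3.46 on day 4, and 3.61, 3.81, 3.91 and 4.01 on day 7. Day 1 arrays were highest, day 4 arrays next, with no overlap between the 2 days or with day 0, and both day 7 arrays were among the day 0 values. Ltv1 rose 5.84-fold at day 1 (log2 change 2.54 ± 0.20 SE, adjusted p = 4.29e-10) and 2.61-fold at day 4 (1.38 ± 0.20 SE, adjusted p = 4.91e-06), and stood at 0.01 (adjusted p = 0.979) at day 7.

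Bysl (bystin), an assembly factor of the maturing 40S particle, had log2 signals in TdTomato podocytes of 2.57, 1.87, 2.42 and 1.80 on day 0, 3.74, 2.62, 2.92 and 3.29 on day 1, 2.18, 1.40, 2.08 and 1.93 on day 4, and 2.17 and 2.35 on day 7. EGFP podocytes had 2.53, 1.70, 2.07 and 1.99 on day 0, 2.54, 2.07 and 1.87 on day 1, 2.79, 2.18, 2.59 and 2.41 on day 4, and 2.23, 2.28, 2.43 and 2.68 on day 7. TdTomato arrays of day 1 were above all day 0 arrays, and those of days 4 and 7 overlapped them. Bysl rose 1.97-fold at day 1 (0.98 ± 0.24 SE, adjusted p = 0.00135), and the differences at day 4 (-0.27, adjusted p = 0.346) and day 7 (0.09, adjusted p = 0.858) did not pass the test.

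Wdr43, Nop14 and Rrp9, a protein of the U3 snoRNP, had log2 changes of 1.88, 1.78 and 1.05 at day 1 and of 1.36, 0.66 and 0.57 at day 4, all called higher. Heatr1 and Utp20, very large proteins of the small-subunit processome, rose by 0.65 (adjusted p = 1.56e-04) and 0.93 (adjusted p = 0.0106) at day 1 and were at 0.07 and 0.26 at day 4, short of the test. The day 1 call of Utp20 was lost without TdTomato MC731 or MC125. Noc4l, whose yeast counterpart forms a complex with that of Nop14, was at -0.27 (adjusted p = 0.225) at day 1 and was lower at day 4 (-0.48 ± 0.18 SE, adjusted p = 0.0224), a call lost with only the compared groups in the fit and without any 1 of 4 arrays.

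Utp18 was too dim for a fold change. Its probe was well above background on 3 of 4 TdTomato arrays at day 1 and 1 of 4 at day 4, and on no other array of the study. Utp18 thus passed the filter on dim probes only through TdTomato arrays of days 1 and 4. Its calls at these days are no independent support for a rise. Its mean log2 signal in TdTomato podocytes was -4.53 over all 4 arrays at day 1, against -6.27 at day 0. The bound was the lowest signal well above background on each day 0 array. By the main processing Utp18 was at least 1.24-fold higher at day 1 (adjusted p of the limma fit = 4.62e-04). At day 4 the fit called it higher (adjusted p = 0.00889), but the bound gives no fold. With normexp background correction its change was -0.03 at day 1, below that bound, and -0.13 at day 4. With Utp18 at its bound, the median of the 39 genes was 0.98 at day 1 and 0.21 at day 4.

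The other 4 small-subunit factors were called higher at day 1, and 1 of them, Rrp12, at day 4 too. Rrp12, needed in yeast for export of both subunits, rose by 1.80 (adjusted p = 2.99e-08) at day 1 and 0.57 (adjusted p = 0.0132) at day 4, and the day 4 call was lost with only the compared groups in the fit and without TdTomato MC122 or MC692. Tsr1, a GTPase-like protein of the late 40S particle, rose by 1.21 (adjusted p = 1.22e-07) at day 1, was at 0.21 (adjusted p = 0.206) at day 4 and was lower at day 7 (-0.51, adjusted p = 0.0408), a call lost with quantile normalization (-0.40) and without any 1 of 5 TdTomato arrays. Nob1, the nuclease that makes the 3′ end of 18S ribosomal RNA, rose by 0.64 (adjusted p = 0.00681) and was at -0.15 (adjusted p = 0.524) at day 4. Ddx10, a helicase, rose by 0.67 (adjusted p = 0.0194) and was at -0.32 (adjusted p = 0.256) at day 4, and the day 1 call was lost with only the compared groups in the fit and without TdTomato MC122, MC541 or MC542.

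Of the 10 large-subunit factors, 6 were higher and 0 lower at day 1 (limma; 0 lower at an unadjusted p under 0.05 too), where 23.8% and 27.9% of all genes were. At day 4, 3 of 10 were higher and 5 lower, against 21.4% and 35.9% of all genes. Pes1 and Bop1, which form the PeBoW complex with Wdr12 and are needed for 28S and 5.8S ribosomal RNA, were higher at day 1 and lower at day 4. Pes1 had log2 signals in TdTomato podocytes of 3.76, 3.25, 3.28 and 3.49 on day 0, 5.30, 4.46, 4.47 and 5.07 on day 1, 2.73, 2.47, 2.22 and 2.87 on day 4, and 3.01 and 2.80 on day 7. On EGFP arrays it was at 3.84, 3.18, 2.99 and 3.78 on day 0, 3.55, 3.06 and 2.90 on day 1, 3.66, 3.22, 2.63 and 3.13 on day 4, and 3.22, 3.34, 2.85 and 3.24 on day 7. TdTomato arrays of day 1 lay above, and those of days 4 and 7 below, every day 0 array. Pes1 rose 2.61-fold at day 1 (log2 change 1.38 ± 0.24 SE, adjusted p = 3.05e-05), fell 1.83-fold at day 4 (-0.87 ± 0.24 SE, adjusted p = 0.00346) and stood at -0.54 (adjusted p = 0.206) at day 7. A dimmer probe for Pes1 gave 0.65 at day 1 and -0.08 at day 4, and with the probes averaged the day 4 change was -0.48 (adjusted p = 0.0857).

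Bop1 had log2 signals in TdTomato podocytes of 3.52, 3.01, 3.45 and 3.03 on day 0, 4.74, 3.86, 4.30 and 4.34 on day 1, 2.47, 1.96, 2.84 and 2.39 on day 4, and 2.94 and 3.02 on day 7. Day 1 arrays were above all of day 0, and day 4 arrays below. Bop1 rose 2.08-fold at day 1 (1.06 ± 0.20 SE, adjusted p = 8.52e-05) and fell 1.78-fold at day 4 (-0.83 ± 0.20 SE, adjusted p = 0.00113). Wdr12, the third protein of the complex, had signals of -0.32, -0.05, -0.13 and -0.02 on day 0, -0.83, 0.20, -0.14 and -0.27 on day 1, -0.86, -0.78, -0.75 and -0.62 on day 4, and -0.84 and -0.35 on day 7. Its 4 day 4 arrays were below all of day 0. It was at -0.13 (adjusted p = 0.611) at day 1 and fell at day 4 (-0.63, adjusted p = 0.00654). At day 7 Bop1 was at -0.27 (adjusted p = 0.471) and Wdr12 at -0.46 (adjusted p = 0.161).

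Noc2l, whose yeast counterpart pairs with that of Noc3l in pre-60S particles, had log2 signals in TdTomato podocytes of 2.14, 1.91, 1.96 and 1.74 on day 0, 3.87, 3.09, 3.39 and 3.67 on day 1, 2.33, 2.35, 2.68 and 2.28 on day 4, and 1.71 and 1.85 on day 7. The EGFP signals were 2.03, 1.69, 1.80 and 1.94 on day 0, 2.18, 1.86 and 1.81 on day 1, 2.34, 2.23, 2.11 and 2.10 on day 4, and 2.01, 2.02, 1.89 and 2.07 on day 7. TdTomato arrays of days 1 and 4 stood above all of day 0, day 1 by more. Noc2l rose 2.97-fold at day 1 (1.57 ± 0.15 SE, adjusted p = 4.17e-09) and 1.39-fold at day 4 (0.47 ± 0.15 SE, adjusted p = 0.00796). Its partner Noc3l was at -0.32 (adjusted p = 0.118) at day 1 and was lower at day 4 (-0.47, adjusted p = 0.02); that call was lost with quantile normalization (-0.29) and without TdTomato MC731 or MC823.

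Nip7, needed for 60S assembly and 27S pre-ribosomal RNA processing in yeast, had log2 signals in TdTomato podocytes of 3.05, 2.60, 2.91 and 2.37 on day 0, 4.25, 3.54, 3.79 and 3.91 on day 1, 3.25, 3.17, 3.30 and 3.14 on day 4, and 2.68 and 3.21 on day 7. In EGFP podocytes they were 3.0, 2.60, 2.72 and 2.79 on day 0, 2.99, 2.60 and 2.68 on day 1, 3.07, 2.85, 2.99 and 2.97 on day 4, and 2.97, 3.32, 3.21 and 3.59 on day 7. TdTomato arrays of day 1, and by less those of day 4, were above all of day 0, and in EGFP podocytes 3 of 4 day 7 arrays were above all of day 0. Nip7 rose 2.20-fold at day 1 (1.14 ± 0.17 SE, adjusted p = 3.94e-06) and 1.40-fold at day 4 (0.48 ± 0.17 SE, adjusted p = 0.0178), the second call being lost without TdTomato MC753. Its dimmer probe gave 1.94 at day 4. In EGFP podocytes the day 7 difference was 0.50 (adjusted p = 0.0779).

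Gtpbp4, a GTPase that joins early 60S particles, rose 2.57-fold at day 1 (1.36 ± 0.18 SE, adjusted p = 8.74e-07) and 1.77-fold at day 4 (0.83 ± 0.18 SE, adjusted p = 4.79e-04). The helicase Ddx18 rose by 0.66 (adjusted p = 7.42e-04) at day 1 and was at -0.15 (adjusted p = 0.418) at day 4. Nop2, a methyltransferase of 28S ribosomal RNA, did not pass the test at day 1 (0.41, adjusted p = 0.15) or day 4 (0.32, adjusted p = 0.256), and was called higher at day 4 with quantile normalization (0.54, adjusted p = 0.0184). Nop16 was at -0.04 (adjusted p = 0.92) at day 1 and lower at day 4 (-0.63, adjusted p = 0.031); the call was lost with quantile normalization (-0.47) and without any 1 of 4 TdTomato arrays.

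**Figure D2:**
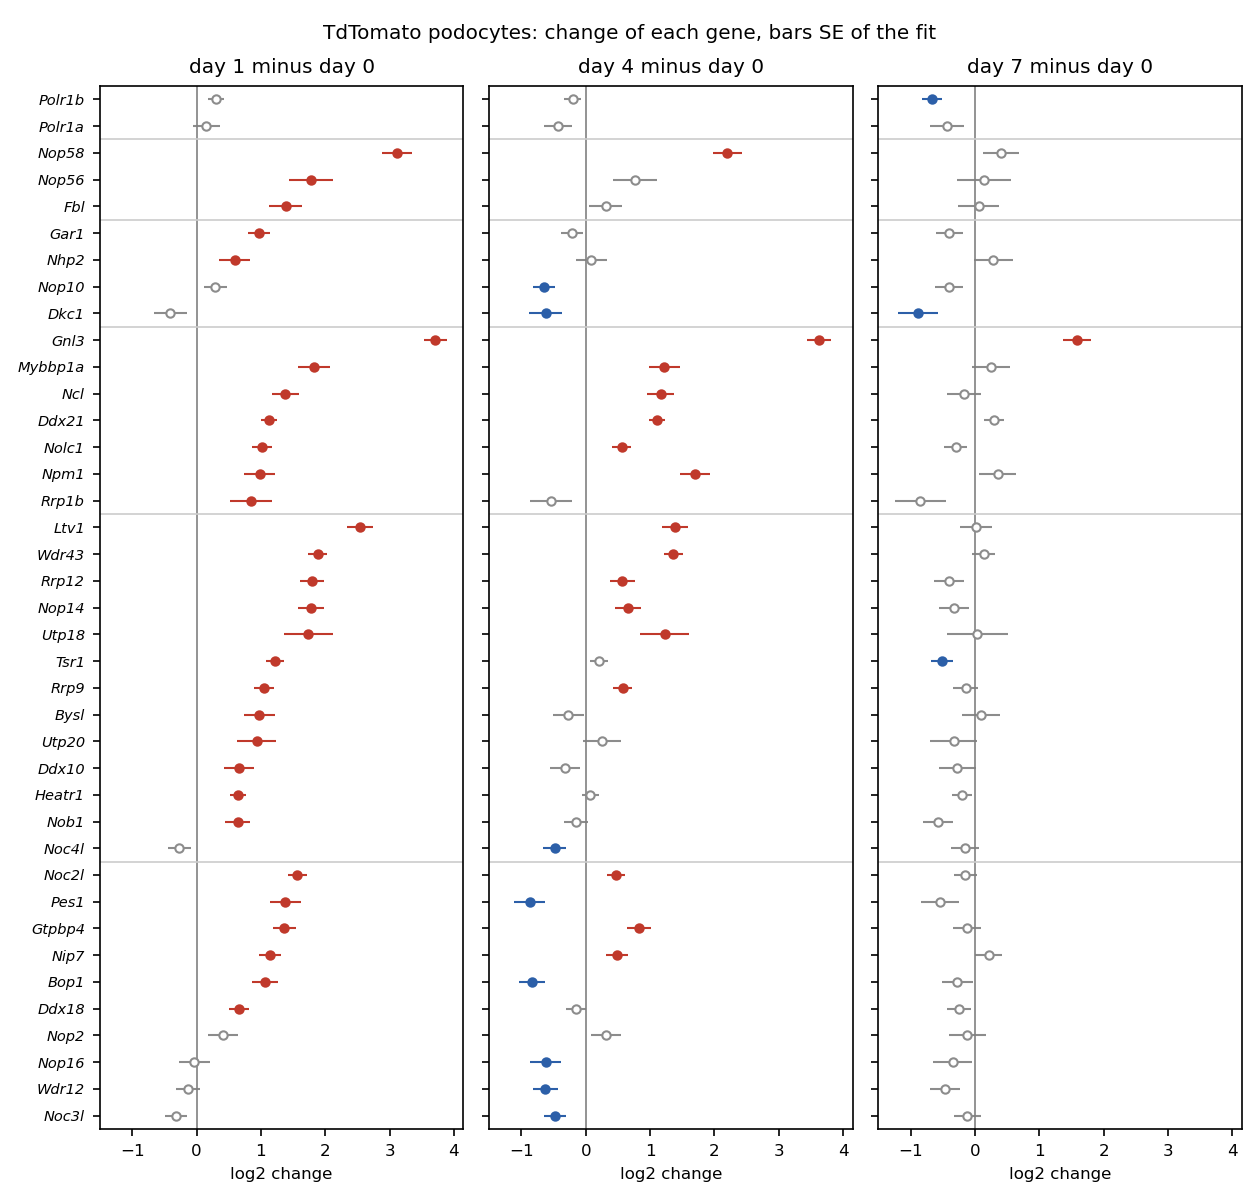
Log2 change of each gene in TdTomato podocytes at days 1, 4 and 7 against day 0, with bars of 1 standard error of the limma fit; genes are grouped by role from RNA polymerase I at the top to the large subunit at the bottom, filled red points are called higher, filled blue points lower and open points neither. Red points number 30, 16 and 1 at days 1, 4 and 7, and blue points 0, 8 and 3; the Utp18 points are for a probe that was dim at day 0.

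Compared directly with day 1, day 4 TdTomato podocytes had 28 of the 39 genes lower and 1 higher, against 26.2% and 24.1% of all genes, with a median log2 change of -0.60 where all genes stood at 0.00. Pes1 (-2.25, adjusted p = 3.61e-08), Bop1 (-1.89, adjusted p = 3.38e-08) and Rrp1b (-1.38, adjusted p = 0.00105) fell most. Gnl3, Ddx21 and Ncl, at -0.09, -0.02 and -0.22, were among the 10 that did not pass the test. Between day 7 and day 4, 16 genes were lower and 0 higher (1 at an unadjusted p under 0.05), against 13.1% and 11.5% of all genes. Gnl3 (-2.04, adjusted p = 7.17e-07), Nop58 (-1.80, adjusted p = 5.49e-05), Ltv1 (-1.37, adjusted p = 2.95e-04) and Npm1 (-1.35, adjusted p = 0.00165) fell most. Without both arrays of mouse MC221, whose columns in the authors' table matched no scanner file, 10 genes were lower, and with only the compared groups in the fit 7 were called.

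In EGFP podocytes, mostly of the same mice, 0 of the 39 genes were called in either direction at day 1, day 4 or day 7 against day 0 by limma, where 0.0256%, 0.595% and 7.25% of all genes were. The day 7 mice MC824 and MC943 gave EGFP arrays only, and the day 1 mouse MC831 a TdTomato array only. At an unadjusted p under 0.05 the counts were 0 at day 1, 1 higher and 1 lower at day 4, and 2 higher at day 7. The median log2 change of the 39 was 0.01, 0.01 and 0.07 at these days. Single changes ran from -0.54 for Rrp12 to 0.42 for Bysl at day 4, and from -0.50 for Rrp1b to 0.77 for Nhp2 at day 7. At day 7, other settings called 1 to 3 of the 39, among Nhp2, Nip7, Nop10 and Rrp1b. Day 4 against day 1 and day 7 against day 4 also gave 0 calls among the 39 (2 and 4 at an unadjusted p under 0.05), against 0.294% and 4.67% of all genes.

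Set against each other on the same day, the populations gave no call before the toxin: 0 of the 39 genes and 0% of all genes were called (0 of the 39 at an unadjusted p under 0.05). At day 1, 29 genes were higher and 1, Noc3l (-0.54, adjusted p = 0.0156), was lower in TdTomato than in EGFP podocytes, against 23.7% and 25.6% of all genes, with a median log2 difference of 1.12. The largest were Gnl3 (3.74 ± 0.19 SE, adjusted p = 1.04e-12), Nop58 (2.88 ± 0.25 SE, adjusted p = 2.02e-09) and Ltv1 (2.43 ± 0.22 SE, adjusted p = 4.44e-09). At day 4, 14 were higher and 8 lower, against 21% and 38.6%; Bop1 (-1.01, adjusted p = 1.57e-04), Noc4l (-0.67, adjusted p = 0.0023) and Nop10 (-0.65, adjusted p = 0.00287) were lowest. The day 4 counts were 19 higher and 5 lower with quantile normalization and 14 higher and 4 lower with each array centred on its median gene. At day 7, Gnl3 was the 1 gene called, higher by 1.32 (adjusted p = 2.30e-04), against 6.18% of all genes higher and 0.799% lower. With the mouse as a random block, 7 further genes were lower at day 7, among them Gar1 (-0.51), Polr1a (-0.47) and Rrp12 (-0.55). The share of all genes called with this block was not counted.

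The difference between the populations in their change since day 0 was tested by an interaction term, which shares its day 0 arrays with the comparisons above. At day 1, 25 of the 39 genes changed more upward in TdTomato than in EGFP podocytes and 0 more downward (1 at an unadjusted p under 0.05), against 18.3% and 20.1% of all genes. Gnl3 led with 3.77 ± 0.27 SE, adjusted p = 5.55e-10, followed by Nop58 (2.91, adjusted p = 6.56e-07), Ltv1 (2.46, adjusted p = 1.20e-06) and Rrp12 (2.03, adjusted p = 5.20e-06). At day 4 the count was 11 upward and 3 downward, against 16% and 28.3% of all genes, the 3 being Bop1 (-1.04, adjusted p = 0.00518), Noc4l (-0.77, adjusted p = 0.0158) and Nop10 (-0.68, adjusted p = 0.0296). With the mouse as a random block, which uses that both populations mostly came from the same animals, the day 4 count was 15 upward and 8 downward. The share of all genes under that block was not counted. At day 7 Gnl3 alone was called (1.35, adjusted p = 0.00543), against 2.65% upward and 0.0384% downward of all genes. Without the day 7 TdTomato array of MC791, 0 were called.

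**Figure D3:**
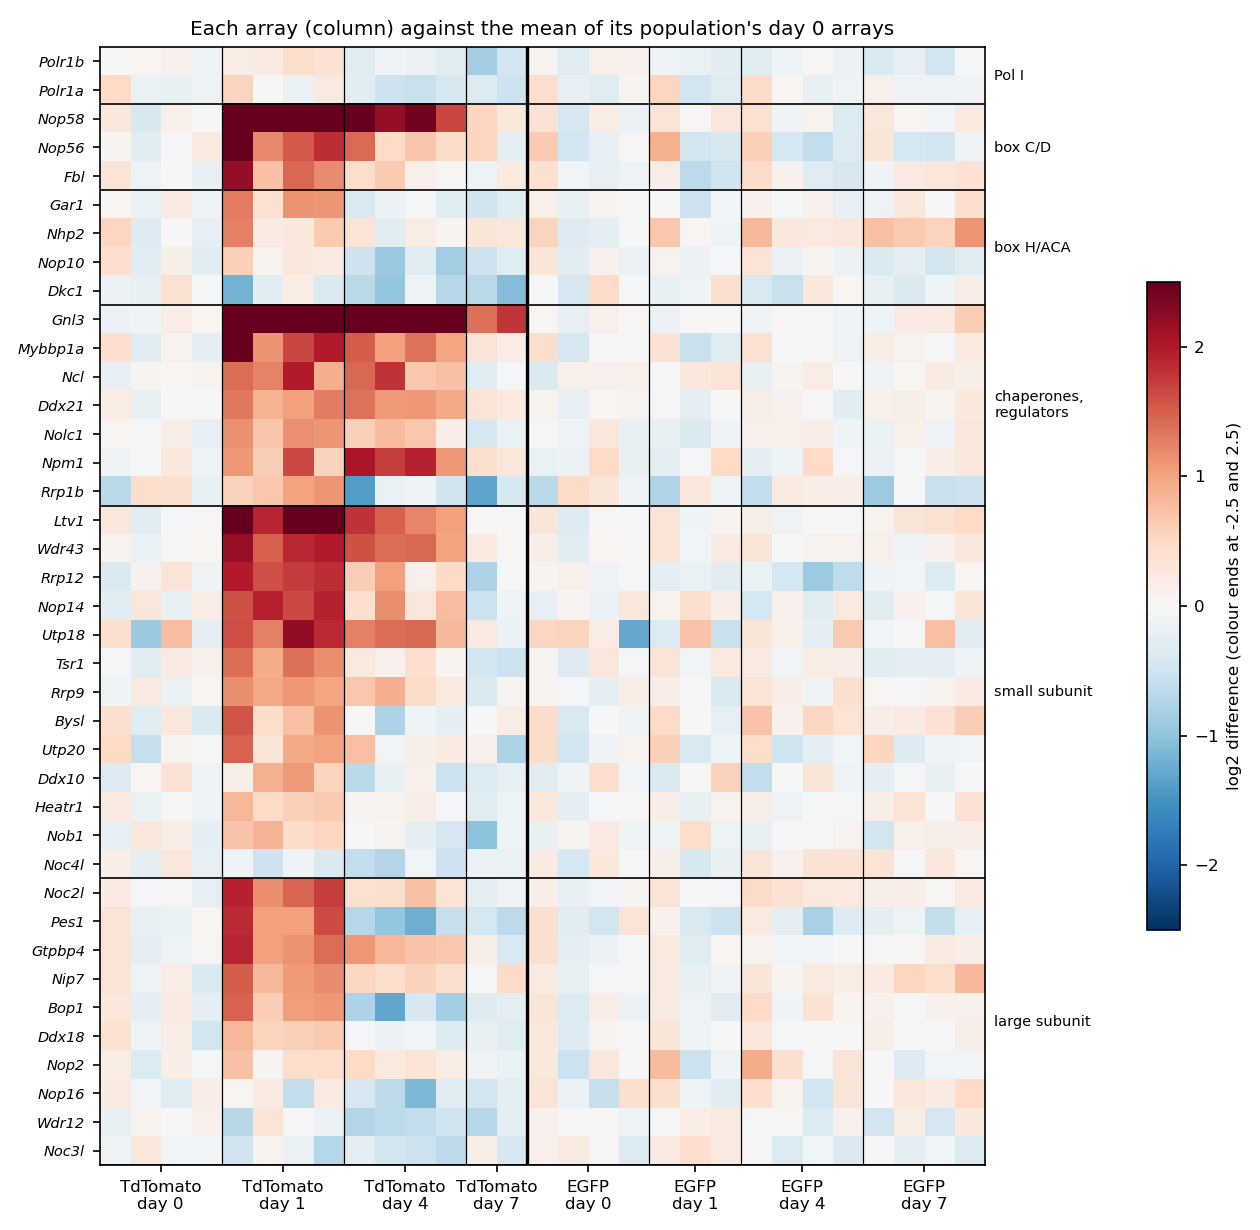
Each row is 1 of the 39 genes, ordered by role and then by change at day 1, and each column 1 array, TdTomato groups on the left of the thick line and EGFP groups on the right; the colour is the log2 signal minus the mean of the day 0 arrays of the same population, red above and blue below. TdTomato day 1 columns are red in all but a few rows, TdTomato day 4 columns are mixed, and EGFP columns stay pale. The Utp18 row is of a probe at background on most arrays.

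Other genes of the pathway were counted from further lists drawn from general knowledge of the pathway, with earlier results of these data known. Of 46 further small-subunit factors, 35 rose and 2 fell at day 1 in TdTomato podocytes (median log2 change 0.84), and at day 4 14 were higher and 8 lower (median -0.03). Of 43 further large-subunit factors, 32 rose and 0 fell at day 1 (median 1.06), and 14 were higher and 8 lower at day 4 (median 0.17). At day 1 the shares called higher lie close to that of the 39 genes, of which 30 were higher. At day 4, 16 of the 39 were higher and 8 lower, with a median of 0.26, above the medians of both further lists. The members with the largest called changes at day 4 were Gnl2 (1.66), a relative of Gnl3 that releases 60S particles from the nucleus, Rrp15 (1.64), Mdn1 (1.51), the giant ATPase of 60S maturation, and Rrs1 (1.49) for the large subunit, and Utp14a (1.59), Dcaf13 (1.27), Utp4 (1.24) and Tsr3 (1.12) for the small, with adjusted p from 2.91e-08 to 2.32e-04.

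Over all genes 23.8% were called higher and 27.9% lower at day 1, and 21.4% and 35.9% at day 4. Of 10 further genes of RNA polymerase I and its factors that could be tested, 4 rose and 1 fell at day 1, and 3 were higher and 4 lower at day 4. Ubtf, the architectural factor of active ribosomal DNA, was lower at day 4 (log2 change -1.22, adjusted p = 0.00146), Taf1a of the promoter selectivity complex was lower too (-0.93, adjusted p = 9.88e-06), and Polr1d, a subunit shared with RNA polymerase III, and Taf1d were higher (1.16 and 0.85). Of 12 snoRNP assembly factors 5 rose and 4 fell at day 1, and 3 were higher and 4 lower at day 4. Nufip1, of the box C/D assembly route, was higher (1.83), Naf1, of the box H/ACA route, was too (1.03), while Shq1, which chaperones dyskerin, and Pih1d1 were lower (-1.06 and -1.01). Of 15 genes of the RNA exosome and pre-ribosomal RNA trimming 6 rose and 2 fell at day 1, and 2 were higher and 6 lower at day 4, with Exosc10, the nuclear nuclease subunit, higher (0.94) and Exosc5, Exosc7 and Exosc8 of the core ring lower (-1.20, -0.85 and -0.66).

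Ribosomal proteins are the cargo of the pathway. Of 78 cytosolic ribosomal protein genes, 1 was higher and 15 lower at day 1 (median log2 change -0.24), and 2 were higher and 15 lower at day 4 (median -0.23), against a median of -0.13 and -0.28 for all genes. The share called lower, 19.2% on both days, was below that over all genes (27.9% and 35.9%), as was the share called higher. At day 4 Rpl18 was higher (1.50), and Rps24, Rpl10 and Rps20 were lower (-1.19, -0.84 and -0.77). Many of these genes have near-identical pseudogene copies, which a short probe may not tell apart. Differences between these lists and the 39 genes were not tested.

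Myc, a transcription factor known to drive many ribosome biogenesis genes, was not well above background on any day 0 TdTomato array and was so on all arrays of days 1, 4 and 7. It was at least 36.3-fold higher at day 1, at least 15.1-fold at day 4 and at least 6.41-fold at day 7, taking on each day 0 array the lowest signal among probes well above background, or the probe's own where higher, as the bound (adjusted p = 1.38e-11 and 3.02e-10 at days 1 and 4). Of 9 genes of the MYC network tested, 3 rose and 4 fell at day 1, and 2 were higher and 1 lower at day 4, with Mxd1 higher (1.39) and Mxd4 lower (-0.91), both partners of MAX that oppose MYC. Over all genes 23.8% were higher and 27.9% lower at day 1, and 21.4% and 35.9% at day 4. In EGFP podocytes at day 7, 2 of the 9 were called higher, where 0 of the 39 members and 7.25% of all genes were called. A part of Myc in the changes of the 39 genes was not tested.

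**Figure D4:**
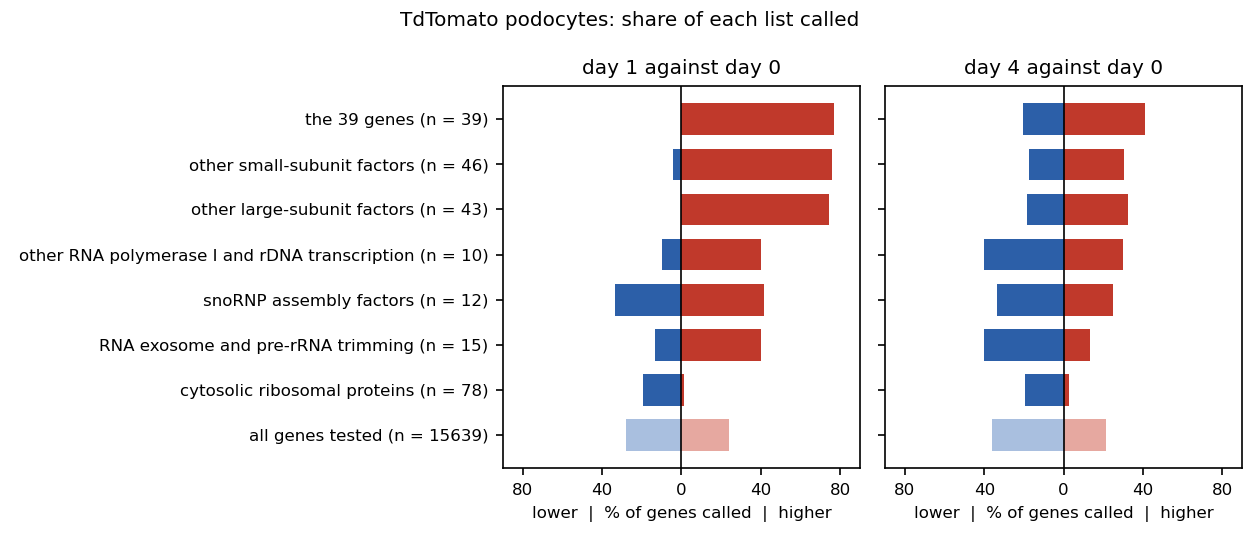
Percent of each list called higher (right of 0, red) or lower (left of 0, blue) in TdTomato podocytes at day 1 and day 4 against day 0, with the number of genes tested in brackets and all genes tested in pale colours at the bottom. The 39 genes and the further small- and large-subunit factors are mostly called higher at day 1 (30 of 39, 35 of 46 and 32 of 43), and of the ribosomal proteins 1 of 78 is.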

How the data were processed

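RNA of FACS-sorted podocytes was labelled with Cy3 (Low Input Quick Amp) and hybridised to 1-colour Agilent arrays, 1 population of 1 mouse each, per the labels' protocols. The deposited scanner files hold, per the file headers, a processed intensity for each spot, made by Agilent Feature Extraction 11.5.1.1 (per the submitters' processing notes) with background subtracted. The authors' deposited series table holds log2 values of the same arrays. Its columns for mouse MC221 matched no scanner file, the other 27 of 29 columns matched their own, column medians ran from -3.18 to -2.33, and its scale and centring are unstated, so it served only as an alternative.

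Processed intensities were scaled to each array's 75th percentile and taken as log2, leaving out control spots and outlier flags. Spots of a probe were averaged, and a probe was kept where it was well above background on 3 or more of 29 arrays. Probe accessions were named through RefSeq symbols (26582 of 55681 probes). The brightest probe stood for a gene, which left 15639 genes. The 8 group means were fitted over all 29 arrays with limma 3.58.1 (R 4.3.3), with Benjamini-Hochberg adjustment over all genes in each of 17 comparisons. Tested on simulated data for TdTomato day 4 against day 0 (15639 genes), the fit called 84% and 40% of genes raised by 2 and 1 (log2). It called 82% and 54% of genes lowered by 2 and 1. The simulation changed 50 genes by each amount and drew arrays independently, with no shared effect of mouse or slide. In the data 21.4% of genes were called higher and 35.9% lower, so these rates need not hold there. Precision is limited by the number of arrays, 2 to 4 in a group.

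Both populations mostly came from the same mice, as the labels state, and residuals of a mouse's 2 arrays correlated at 0.0413 to 0.636. The alternatives were normexp, quantile normalization, filters, the authors' values, the mean of probes, only the compared groups, mouse and slide as blocks, and each array left out. Shares called over all genes were counted for the main fit only. Normexp used the median spot signal, since the mean signal is not among the columns used here. Leaving out mouse MC221 and centring on the median gene were added after seeing the data. The 39 members and all lists were chosen with earlier results of these data known. Every array value is printed for the member with the largest change of each role at TdTomato day 1, TdTomato day 4 and EGFP day 7, and for Ncl, Npm1, Fbl and Polr1a. From each other list at most 4 genes called at TdTomato day 4 are named, by size of change. Array values of Bop1 and Wdr12 were added after their values were seen, to complete a complex.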

Additional observations from a re-analysis of the deposited data

Results flagged for a closer look

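Among 102 sets of 4 values, each of 1 gene or of the median of the 39 in 1 group, 10 held a value that stood apart. It stood apart from the other 3 by Dixon's criterion, which chance alone passes in about 1 of 20 sets. The sets share arrays, so they are not independent. Of the 10 values 7 were on slide 4, some of them on the same array. Ncl was at 4.55 in TdTomato podocytes of mouse MC122 at day 0, where the others were 4.82 to 4.85, and at 4.40 in EGFP podocytes of the same mouse, where the others were 4.86 to 4.88. Polr1a was at 2.65 in TdTomato podocytes of MC122 at day 0 (others 1.96 to 2.03) and at 2.35 in EGFP podocytes of MC221 at day 7 (others 2.08 to 2.12). In EGFP podocytes of MC151 at day 4, Nhp2 was at 3.99 (others 3.41 to 3.47), Rrp1b at -0.61 (others 0.17 to 0.24), and the median of the 39 genes against day 0 at 0.22 (others 0.00 to 0.02). These mice were on slide 4. Noc2l was at 2.68 in TdTomato podocytes of MC822 at day 4 (others 2.28 to 2.35), Npm1 at 4.81 in EGFP podocytes of MC742 at day 0 (others 4.12 to 4.15), and Polr1b at 0.35 in EGFP podocytes of MC731 at day 0 (others 0.73 to 0.79).

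The change since day 0 differed between TdTomato and EGFP podocytes by the interaction test. The number of the 39 genes called was 25 at day 1, 14 at day 4 and 1 at day 7. At day 1, 25 were upward and 0 downward, against 18.3% and 20.1% of all genes. At day 4, 11 (28.2%) were upward and 3 (7.69%) downward, against 16% and 28.3% of all genes. The day 4 share called downward was thus below that over all genes. At day 7, 1 was upward and 0 downward, against 2.65% and 0.0384% of all genes. Among genes with every array value printed, the difference of changes at day 1 was 3.77 for Gnl3, 2.91 for Nop58, 2.46 for Ltv1, 1.72 for Fbl, 1.66 for Pes1, 1.48 for Noc2l, 1.20 for Ncl, 1.17 for Gar1, 1.16 for Nip7, 0.91 for Npm1 and 0.48 for Polr1b. At day 4 it was 3.68 for Gnl3, 2.19 for Nop58, 1.67 for Npm1, 1.39 for Ltv1, 1.15 for Ncl and -0.68 for Nop10. At day 7 it was 1.35 for Gnl3.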

How the results depend on the processing

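The number of the 39 genes called kept within 1.5 times its main count under every alternative run for TdTomato day 1 against day 0 (28 to 33, main 30), day 4 against day 0 (20 to 30, main 24), day 4 against day 1 (21 to 31, main 29), and TdTomato against EGFP at day 1 (26 to 34, main 30) and day 4 (16 to 28, main 22), and the interaction at day 1 (21 to 31, main 25). In EGFP podocytes the counts at days 1 and 4 were 0 throughout. The day 7 counts moved. For TdTomato day 7 against day 0 (main 4) the count was 2 with no filter on dim probes, 1 with only the compared groups, 10 with a block for the slide, 1 without mouse MC221 and 1 to 4 leaving out single arrays. For day 7 against day 4 in TdTomato podocytes (main 16) it was 7 with only the compared groups, 10 without MC221 and 10 to 17 leaving out single arrays. In EGFP podocytes, day 7 against day 0 (main 0) gave 1 with normexp, 3 with quantile normalization, 2 with the authors' values, 1 with the mouse as a random block, 3 with a block for the slide, 1 without MC221 and 0 to 1 leaving out single arrays, and day 7 against day 4 (main 0) gave 3 with the slide as a block. TdTomato against EGFP at day 7 (main 1) gave 2 with normexp, 8 and 4 with the mouse as a random and a fixed block and 3 with a slide block. The interaction at day 4 (main 14) gave 23 with either block for the mouse and 22 with the slide, and at day 7 (main 1) 2 with the random block and 0 to 1 leaving out single arrays, 0 without TdTomato MC791. A day 7 TdTomato group left with 1 array is assumed to vary like the other groups. The blocks for the mouse moved no other count by over 1.5 times. Of single-gene results, 3 reversed, all for the dim Utp18 probe with normexp: -0.0323 at day 1, -0.13 at day 4 and -0.0784 in the interaction at day 1. Leaving out single arrays ended 209 single-gene calls, added 52 and reversed 0, and the other alternatives ended 99 and added 189. The cause of these moves was not tested.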

Other observations

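Arrays of slide 4 were at an end of their group for several genes, in both populations and on all days. Polr1a, Nop58 and Utp20 were highest on the slide 4 array in 8 of 8 groups, and Rrp1b and Ddx10 were lowest on it in 8 of 8 groups.

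Among the 10 genes with several probes past the filter, Ncl and Nip7 had a dimmer probe with a larger day 4 change in TdTomato podocytes than the brightest probe (3.0 against 1.16 for Ncl, 1.94 against 0.48 for Nip7), and Ddx21 and Pes1 one with a smaller change.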
